A study of Mus musculus with 6 samples.

Results

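The genes described here encode the nuclear-encoded subunits of the mitochondrial respiratory chain and of ATP synthase. They were chosen by symbol, as genes whose name starts with Ndufa, Ndufb, Ndufc, Ndufs or Ndufv and a digit, with Uqcr, with Cox4 to Cox8 or with Atp5, or is Sdha, Sdhb, Sdhc or Sdhd. Of 17189 genes with values, 86 were members: 38 of complex I, 4 of complex II, 8 of complex III, 19 of complex IV and 17 of complex V. Despite their Ndufa symbols, Ndufa4 and its paralogue Ndufa4l2 were assigned to complex IV and not to complex I. A further 2 symbols, Cox7b2 and Ndufs6b, met the rule but had empty cells. The study's title links aged skin to experimental osteoarthritis through signalling of the IL-36 receptor, and spesolimab is an antibody that blocks that receptor. RNA came from primary articular chondrocytes of wild-type mice in 3 groups of 2 libraries: aging SNL, aging SNL with spesolimab, and control. The labels do not expand SNL, and they give neither the age of the animals nor a dose or time of spesolimab. They do not say whether the replicates were separate cultures or animals, so p-values measure the spread between libraries, which may be technical.

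Complexes I and II feed electrons from NADH and succinate into ubiquinone, complex III passes them to cytochrome c, and complex IV passes them to oxygen. Complexes I, III and IV pump protons across the inner mitochondrial membrane, and complex V, the ATP synthase, uses the gradient to make ATP. Articular cartilage has no blood vessels, and its chondrocytes live at low oxygen and rely largely on glycolysis. Some complex IV subunits exist as pairs of genes, of which one is restricted to muscle, lung, testis or low oxygen. The catalytic core subunits encoded in mitochondrial DNA are not covered: 0 genes with the mt- prefix were listed.

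Totals ranged from 16566791 to 17312833 counts per library. On the first principal component aging SNL replicate 1 lay at 67.9, and the remaining 5 libraries between -18.8 and -6.46. The 13 chondrocyte markers, collagen II and aggrecan genes among them, were all detected, and summed to 6192 TPM in aging SNL replicate 1 against 35563 to 41494 TPM in the other libraries. TPM (transcript abundance per library) corrects for gene length and sums to the same total in each library. Macrophage markers, all 8 detected, summed to 222 TPM in replicate 1 of aging SNL, 291 TPM in replicate 1 of the spesolimab group and 225 TPM in replicate 1 of control, against 51.2 to 76.2 TPM in the 3 libraries of replicate 2. In RNA from bulk cultures, fewer cells of a type and less RNA per cell cannot be told apart. The part of these differences in the results below was not tested. Values without aging SNL replicate 1 are given for the medians of the complexes and for several genes. For the other gene lists the median in each aging SNL library is given.

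The respiratory chain genes were short and abundant. Their median level over all libraries was 211 TPM, against 17.5 TPM over all genes tested, and 78.0% of the 82 tested members reached 100 TPM, against 10.7% of all tested genes. Their median effective transcript length was 449 bases, against 2794 bases for all tested genes. Together they took 1.90% and 2.27% of all TPM in aging SNL, 2.28% and 2.21% with spesolimab, and 2.34% and 2.43% in control. The lowest share was that of aging SNL replicate 1. As a share of read counts the members were close to each other, at 0.533% and 0.544% in aging SNL, 0.531% and 0.516% with spesolimab, and 0.539% and 0.561% in control.

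Complex IV, with Ndufa4l2 assigned to it, held 4 of the 5 highest members on the TPM scale. Cox7c, a small structural subunit, was first with a mean level of 1030 TPM over the 6 libraries, followed by Cox4i1, the general form of subunit 4, at 711 TPM. Ndufa4l2, a paralogue of the complex IV subunit gene Ndufa4 that is known as a target of hypoxia-inducible factor 1, came next at 695 TPM. Cox6c followed at 669 TPM, and Uqcrh, the acidic hinge subunit of complex III, at 632 TPM. In complex V the highest were Atp5md at 561 TPM and Atp5e, the epsilon subunit of ATP synthase, at 559 TPM. In complex I, Ndufa3 had 495 TPM and Ndufb1 had 480 TPM. The 4 subunits of complex II, which is also the succinate dehydrogenase of the citric acid cycle, were lower and close together, at 143 TPM for Sdhc, 142 TPM for Sdhd, 137 TPM for the flavoprotein gene Sdha and 92.6 TPM for the iron-sulfur gene Sdhb.

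The forms known from muscle or testis were near the bottom of the order. Cox6b2, known from testis, averaged 18.5 TPM, with 56.7 TPM in aging SNL replicate 1 and 5.33 to 16.0 TPM in the other libraries. Among the forms known from heart and skeletal muscle, Cox7a1 averaged 3.79 TPM, Cox6a2 3.12 TPM and Cox8b 0.508 TPM. Cox8c, another testis form, averaged 0.158 TPM. Skeletal and cardiac muscle markers summed to 12.3 to 42.5 TPM per library, with 9 of 13 markers reaching 10 counts in some library. Ndufb4b, a near-identical copy of Ndufb4, averaged 0.340 TPM, and counts of Ndufb4, Ndufb4b and Ndufb4c are uncertain because reads may be divided between them. Cox7a1, Cox8b, Cox8c and Ndufb4b were too low to be tested.

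**Figure D1:**
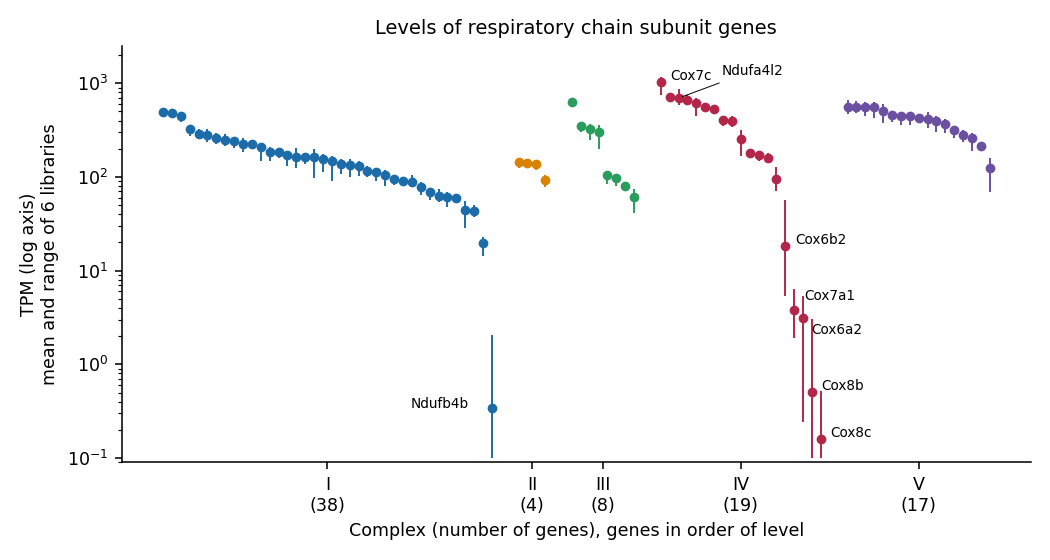
Level of each of the 86 genes in TPM on a log axis, ordered within its complex. Points are means over the 6 libraries and lines run from the lowest to the highest library, with values below 0.1 drawn at 0.1. The low genes were muscle, testis or copy forms, and Cox7c and Ndufa4l2 were among the highest.

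Promoter sequences are shown because the binding site of nuclear respiratory factor 1 is a known feature of genes of this family. RefSeq entries of build GRCm38.p6 were found for 69 of the 86 members, and the 250 bases before the transcript start were searched on both strands for 4 motifs. The site, GCGCA and GCGC spaced by 1 base, occurred in 13 of the 69 (18.8%), against 8.90% of the 10670 tested genes with an entry and 4.23% of all 27025 entries. The ETS site CCGGAAGT occurred in 3 members (4.35%), against 6.41% of tested genes and 3.23% of all entries. The YY1 site AAGATGGC occurred in 1 member (1.45%), against 2.25% and 1.83%, and the core ACGTG of the hypoxia response element in 15 members (21.7%), against 24.98% of tested genes and 18.5% of all entries, so the members' share was below that of tested genes. No member promoter held overlapping matches of 2 of these motifs. A match is a run of letters and not a measured binding site. For each complex with such a promoter the member of highest TPM is printed 5′ to 3′, with the nuclear respiratory factor 1 site in capitals. No complex III promoter held the letters. The windows lie at chr4:123718187-123718436 for Ndufs5, chr9:50603850-50604099 for Sdhd, chr5:115348959-115349208 for Cox6a1 and chr11:115419920-115420169 for Atp5h, all on the minus strand of GRCm38.p6.
Ndufs5: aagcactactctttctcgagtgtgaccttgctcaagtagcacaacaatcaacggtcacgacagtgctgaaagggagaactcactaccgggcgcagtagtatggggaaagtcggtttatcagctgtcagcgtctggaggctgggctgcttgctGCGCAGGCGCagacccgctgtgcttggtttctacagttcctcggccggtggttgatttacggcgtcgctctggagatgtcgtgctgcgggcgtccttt
Sdhd: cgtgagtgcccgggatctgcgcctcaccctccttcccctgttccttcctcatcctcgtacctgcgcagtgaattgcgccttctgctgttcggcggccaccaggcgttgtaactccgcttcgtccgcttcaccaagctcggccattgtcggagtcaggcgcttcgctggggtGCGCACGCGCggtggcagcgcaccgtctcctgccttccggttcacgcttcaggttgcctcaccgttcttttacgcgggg
Cox6a1: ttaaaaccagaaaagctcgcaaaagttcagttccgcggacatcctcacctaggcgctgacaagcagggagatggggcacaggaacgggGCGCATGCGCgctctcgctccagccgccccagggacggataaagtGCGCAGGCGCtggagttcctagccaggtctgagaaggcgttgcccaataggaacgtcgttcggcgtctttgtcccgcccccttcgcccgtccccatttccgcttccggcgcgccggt
Atp5h: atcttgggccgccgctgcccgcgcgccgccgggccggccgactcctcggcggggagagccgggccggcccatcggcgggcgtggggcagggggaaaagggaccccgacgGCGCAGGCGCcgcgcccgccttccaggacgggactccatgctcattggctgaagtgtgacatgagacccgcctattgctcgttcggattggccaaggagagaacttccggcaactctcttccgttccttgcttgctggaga

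The match began 98 bases before the start in Ndufs5, 79 in Sdhd and 141 in Atp5h. In Cox6a1 there were 2 matches, the first beginning 162 bases before the start. CPM values, used from here on for single genes, are scaled to library depth and not to gene length. Sdhd, a membrane anchor of complex II, had 80.9 and 73.9 CPM in aging SNL, 73.2 and 74.4 CPM in the spesolimab group, and 72.0 and 68.2 CPM in control. Cox6a1, the general form of subunit 6a, had 80.3 and 101 CPM in aging SNL, 87.8 and 92.8 CPM in the spesolimab group, and 87.2 and 90.5 CPM in control, and its groups overlapped. Atp5h, a subunit of the peripheral stalk of ATP synthase, had 73.7 and 77.7 CPM in aging SNL, 74.6 and 71.2 CPM in the spesolimab group, and 72.0 and 71.0 CPM in control. Ndufs5, a complex I subunit, had 39.0 and 30.7 CPM in aging SNL, 29.8 and 28.0 CPM in the spesolimab group, and 32.3 and 34.2 CPM in control, with both spesolimab libraries below the other 4.

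The comparison of aging SNL with control asks what differed in the chondrocytes under the condition labelled aging SNL. No respiratory chain gene was called in edgeR's quasi-likelihood test with Benjamini-Hochberg adjustment over all genes: 0 of 82 at an adjusted p under 0.05, against a background of 0% (0 of 13399 genes). At an unadjusted p under 0.05 there were 1 of 82 members and 1694 of all genes. The median log2 fold change of the members was 0.02 and that of all genes 0.01. Of the members, 43 estimates were above and 39 below 0, against 6964 above and 6434 below over all genes. The median standard error of a member's log2 fold change was 0.11, against 0.18 over all genes. By complex, the median log2 fold change was -0.01 for I, 0.06 for II, 0.04 for III, 0.09 for IV and -0.03 for V. The complex IV value rested on aging SNL replicate 1, in which the median gene of complex IV stood at 0.17 from the control mean, against -0.02 in replicate 2. Without replicate 1 the medians were 0.01 for I, 0.03 for II, 0.09 for III, -0.02 for IV and -0.03 for V. Estimates beyond 0.5 on the log2 scale in either direction numbered 3 of 82, against 19.2% of all genes, and belonged to Ndufa4l2, Cox6b2 and Cox6a2.

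Between libraries of one group the median gap was smaller for members than for all genes. Members were also more abundant than most genes, and the part of abundance in this was not tested. The 2 aging SNL libraries differed by more than 2-fold in 2 of 82 members (2.44%), Cox6a2 and Cox6b2, against 13.9% of all tested genes. The spesolimab libraries did so in 1 member, against 2.60% of all genes, and the control libraries in 0 members, against 2.11%. The median gap between the libraries of a group, on the log2 scale, was 0.14 for members in aging SNL against 0.31 for all genes, 0.08 against 0.13 in the spesolimab group, and 0.07 against 0.12 in control. Measured from the control mean in log2 CPM, the median member stood at 0.03 and -0.00 in aging SNL, at -0.03 and -0.04 with spesolimab, while the control libraries stood at -0.02 and 0.02. In aging SNL replicate 1, which stood apart on the first principal component, the median of all genes lay at -0.01 and that of the members at 0.03. A median near 0 does not measure how far single genes spread.

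**Figure D2:**
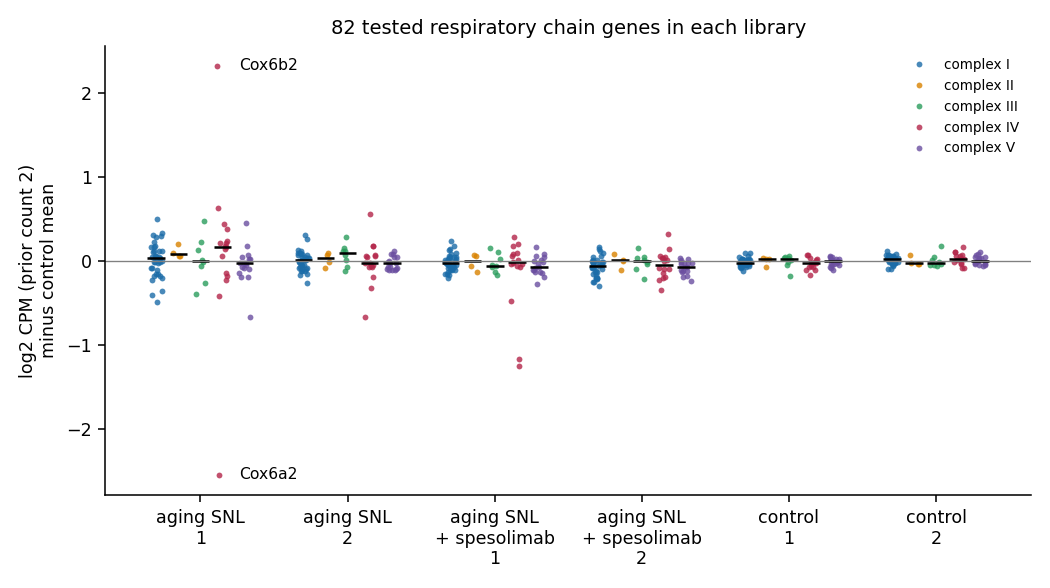
Difference in log2 CPM (prior count 2) of each of the 82 tested genes from the control mean, for each library on the x axis, coloured by complex. Bars are the medians of each complex in that library. Most genes lie near 0 in all libraries, and Cox6b2 and Cox6a2 stand apart in aging SNL replicate 1.

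Ndufa4l2 was the member with the lowest p. It had 278 and 303 CPM in aging SNL, 251 and 257 CPM in the spesolimab group, and 197 and 213 CPM in control. Both aging SNL libraries were the highest, both control libraries the lowest, and no groups overlapped. Over all genes, 20.9% had both aging SNL libraries above both controls. In 13.4% both spesolimab libraries were below both aging SNL libraries, and in 23.8% they were above both controls. Ndufa4l2 stands first here for its low p, which favours such a separation. Its log2 fold change in aging SNL against control was 0.50 ± 0.11 (SE), with an unadjusted p of 0.00426 and an adjusted p of 0.208 in edgeR, so it was not called with 2 libraries per group. DESeq2 gave 0.50 ± 0.12 with an adjusted p of 0.00326, where 3.32% of all genes were called. Ndufa4l2 was also called higher without aging SNL replicate 1, at 0.57 ± 0.10 (edgeR adjusted p = 0.0371, 3.43% of all genes called, 1.81% higher), and without aging SNL replicate 2, at 0.43 ± 0.10 (edgeR adjusted p = 0.0209, 25.7% of all genes called). Over all settings its adjusted p in this comparison ranged between 0.00326 and 0.943. On the log2(TPM + 1) scale, on which the median of all genes lay at -0.22, its estimate was 0.25 ± 0.19.

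Its partner Ndufa4 did not show this order. Ndufa4, a subunit found at the periphery of complex IV, had 53.4 and 48.5 CPM in aging SNL, 49.1 and 44.6 CPM in the spesolimab group, and 50.2 and 51.7 CPM in control, a log2 fold change of -0.00 ± 0.10 in aging SNL against control. In TPM within each library, Ndufa4l2 stood at 184% and 221% of Ndufa4 in aging SNL, at 176% and 202% with spesolimab, and at 138% and 144% in control. The 4 aging SNL libraries with or without spesolimab were thus above both controls in this ratio.

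Cox4i2, the form of subunit 4 known from lung and from low oxygen, did not follow Ndufa4l2. It had 21.2 and 25.6 CPM in aging SNL, 17.9 and 22.4 CPM in the spesolimab group, and 22.1 and 27.9 CPM in control. Its groups overlapped in aging SNL against control (log2 fold change -0.09 ± 0.19), though each aging SNL library lay below the same-numbered control. Its partner Cox4i1 had 191 and 177 CPM in aging SNL, 181 and 174 CPM in the spesolimab group, and 166 and 172 CPM in control (0.12 ± 0.10). In TPM, Cox4i2 was at 11.4% and 14.96% of Cox4i1 in aging SNL, 10.2% and 13.3% with spesolimab, and 13.7% and 16.8% in control.

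In the remaining tested restricted forms, Cox6b2 and Cox6a2, aging SNL replicate 1 was the extreme library. Cox6a2 had 1 count there and 12 counts in aging SNL replicate 2, against 15 and 18 counts in control. Cox6b2 had 10.3 and 1.21 CPM in aging SNL, 0.759 and 1.71 CPM in the spesolimab group, and 1.83 and 2.13 CPM in control, so that aging SNL replicate 1 alone was high. The log2 fold change in aging SNL against control was 1.53 ± 0.97, and without that library it was -0.71 ± 0.55. Cox6a2 had 0.0621 and 0.723 CPM in aging SNL, 0.350 and 0.706 CPM in the spesolimab group, and 0.857 and 1.01 CPM in control, with all 4 aging SNL libraries, with or without spesolimab, below both controls and aging SNL replicate 1 the lowest. Its log2 fold change in aging SNL against control was -1.22 ± 0.90, and it was -0.36 ± 0.60 without aging SNL replicate 1 and -3.76 ± 1.00 without replicate 2. Their partners were abundant, Cox6b1 with 69.5 and 57.3 CPM in aging SNL, 56.9 and 55.7 CPM in the spesolimab group, and 60.2 and 59.1 CPM in control.

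**Figure D3:**
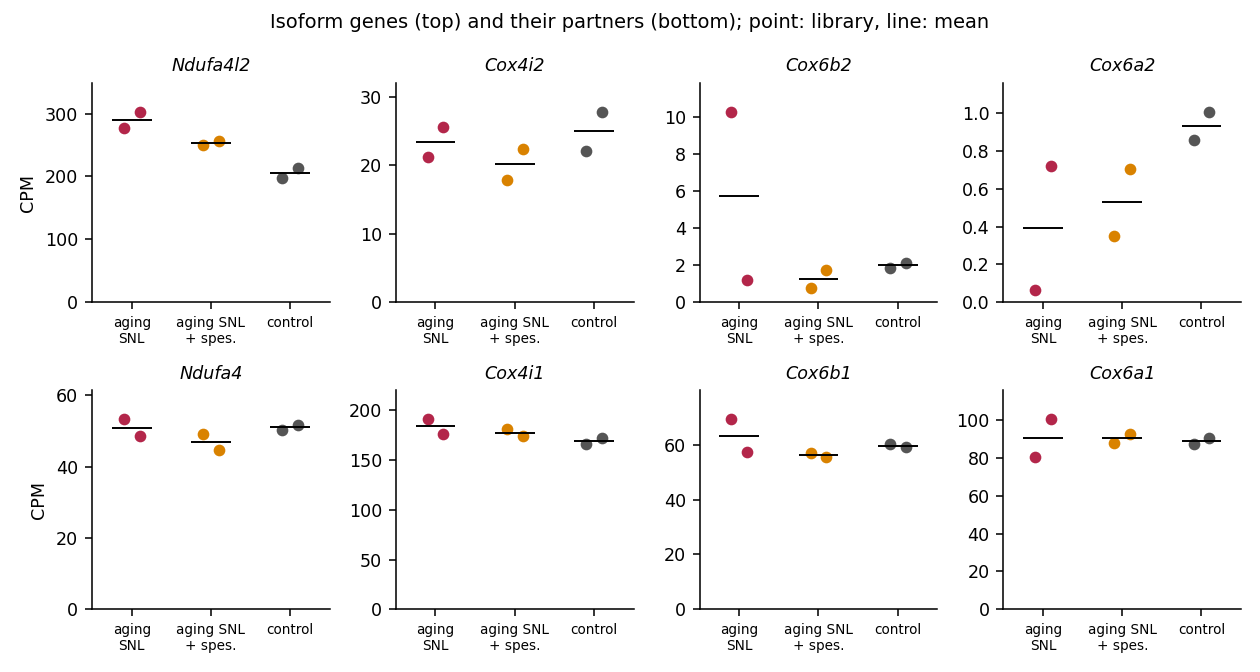
CPM per library of 4 restricted complex IV genes (top row) and of their partners (bottom row), by group, with each axis starting at 0. Points are libraries and lines are means of 2. Ndufa4l2 was highest in aging SNL and lowest in control, at 197 to 303 CPM in all, while the high Cox6b2 value of 10.3 CPM came from 1 library.

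A larger set of members was called when the aging SNL group was represented by replicate 1 alone. A single library is then assumed to vary like the other groups. In that edgeR fit 7 members were called higher, against 13.4% of all genes, and 4 lower, against 12.3%, so the members' share was no higher than the background. The higher ones were Cox6b2 at a log2 fold change of 2.37, Cox6c at 0.63, Ndufa1 at 0.50, Uqcrh at 0.47, the small ATP synthase subunit gene Atp5mpl at 0.45, Ndufa4l2 at 0.43 and Cox8a at 0.38. The lower ones were Cox6a2 at -3.76, Atp5g1 at -0.67, Cox5b at -0.42 and Uqcrb at -0.40. With aging SNL replicate 2 as the lone library of its group, Ndufa4l2 alone among the members was called.

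The values behind these calls show the gap between the aging SNL libraries. Cox6c, a subunit of complex IV, had 120 and 81.3 CPM in aging SNL, 89.2 and 77.2 CPM in the spesolimab group, and 79.0 and 76.0 CPM in control. Atp5g1, 1 of the genes of the proton-carrying c subunit of ATP synthase, had 23.5 and 39.4 CPM in aging SNL, 32.6 and 31.7 CPM in the spesolimab group, and 34.5 and 40.3 CPM in control. In both genes aging SNL replicate 1 was the extreme library and replicate 2 lay near control. Without replicate 1 the log2 fold change in aging SNL against control was 0.07 ± 0.11 for Cox6c and 0.08 ± 0.12 for Atp5g1. Cox6c, Uqcrh and Cox5b had both aging SNL libraries on one side of both controls, which Atp5g1 did not. Uqcrh had 120 and 93.4 CPM in aging SNL, 92.9 and 95.6 CPM in the spesolimab group, and 89.1 and 82.9 CPM in control (log2 fold change in aging SNL against control 0.31 ± 0.14). Cox5b, the zinc-binding subunit of complex IV, had 33.4 and 39.3 CPM in aging SNL, 43.6 and 38.2 CPM in the spesolimab group, and 42.7 and 46.7 CPM in control (-0.30 ± 0.13). Neither was called with 6 libraries in edgeR, at adjusted p = 0.435 for Uqcrh and 0.419 for Cox5b. Without aging SNL replicate 1 the estimate was 0.12 ± 0.09 for Uqcrh and -0.19 ± 0.12 for Cox5b.

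Groups did not overlap in a share of members close to that of all genes. Both aging SNL libraries were above both controls in 16 of 82 members (19.5%), against 20.9% of all genes, and below them in 14 (17.1%), against 21.1%. The lower ones included 7 of the 17 members of complex V and 3 of the 37 of complex I. Atp5b, the catalytic beta subunit of ATP synthase, was 1 of them, with 380 and 404 CPM in aging SNL, 397 and 384 CPM in the spesolimab group, and 422 and 448 CPM in control. Its log2 fold change in aging SNL against control was -0.15 ± 0.11. The 3 lower members of complex I were Ndufa9, Ndufb8 and Ndufv1.

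Spesolimab added to aging SNL moved no respiratory chain gene past the threshold. In edgeR 0 of 82 members were called, against 0% of all genes, and 0 members and 392 of all genes had an unadjusted p under 0.05. The median log2 fold change against aging SNL was -0.05 for members and -0.01 for all genes. Of the members, 25 estimates were above and 57 below 0, against 6559 above and 6840 below over all genes. By complex it was -0.05 for I, -0.07 for II, -0.08 for III, -0.10 for IV and -0.03 for V. Without aging SNL replicate 1 these medians were -0.05 for I, -0.00 for II, -0.04 for III, -0.01 for IV and -0.03 for V. A single member, Cox6b2, lay beyond 0.5 on the log2 scale, against 12.2% of all genes. Its estimate was -2.22 ± 1.01, and 0.03 ± 0.57 without aging SNL replicate 1.

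Ndufa4l2 had a log2 fold change of -0.19 ± 0.11 in the spesolimab group against aging SNL (edgeR adjusted p = 0.956). Both spesolimab libraries were below both aging SNL libraries in 14 members (17.1%), against 13.4% of all genes, and above them in 2, Atp5j and Ndufa9, against 13.5%. Of the 14, 9 belonged to complex I, which holds 37 of the 82 tested members (9 of 37 is 24.3%). Among these, Ndufs5 had 29.8 and 28.0 CPM in the spesolimab group, against 39.0 and 30.7 CPM in aging SNL (-0.27 ± 0.14). Ndufa13, a subunit also known as GRIM-19, had 55.7 and 57.0 CPM in the spesolimab group, against 69.3 and 61.7 CPM in aging SNL (-0.22 ± 0.09). In both genes aging SNL replicate 1 was the highest of the 4 libraries, and without it the estimate was -0.09 ± 0.10 for Ndufs5 and -0.13 ± 0.08 for Ndufa13.

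Without aging SNL replicate 2, 1 member was called higher in the spesolimab group, Atp5g1, against 9.59% of all genes. In that edgeR fit 7 were called lower, namely Cox6b2, Cox6c, Ndufa1, Ndufs5, Uqcrh, Cox8a and Cox6b1, against 10.9% of all genes (20.5% in either direction). Without aging SNL replicate 1 the count was 0 members, against 0% of all genes, and in DESeq2 it was 0 members, against 0.0224%.

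Set against control, the spesolimab group gave 0 of 82 members called in edgeR, against 0% of all genes. At an unadjusted p under 0.05 there were 1 member, Ndufa4l2, and 827 of all genes. The median log2 fold change was -0.04 for members and 0.00 for all genes. Of the members, 28 estimates were above and 54 below 0, against 6716 above and 6683 below over all genes. By complex it was -0.04 for I, -0.01 for II, -0.02 for III, 0.00 for IV and -0.06 for V. Cox6b2 and Cox6a2 were the 2 members beyond 0.5 on the log2 scale, against 11.9% of all genes.

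Ndufa4l2 had a log2 fold change of 0.31 ± 0.11 in the spesolimab group against control, with an unadjusted p of 0.0306 and an edgeR adjusted p of 0.728. The comparison shares its control libraries with that of aging SNL, and its spesolimab libraries with the comparison just described. Both spesolimab libraries were below both controls in 26 members (31.7%), against 24.6% of all genes, and above them in 9 (11.0%), against 23.8%. The lower ones included 7 of 17 members of complex V and 12 of 37 of complex I. Of these, Ndufs4, a subunit needed for the assembly of complex I, had 26.3 and 23.8 CPM in the spesolimab group, against 28.7 and 29.7 CPM in control (-0.22 ± 0.13). Ndufv3 was among the higher ones, with 54.1 and 51.0 CPM in the spesolimab group, against 49.0 and 43.1 CPM in control (0.19 ± 0.11). Neither passed the test. No member was called in this comparison under any setting run, while DESeq2 called 1.19% of all genes. The edgeR fits called 2.88% of all genes with only the 4 libraries compared, 2.82% without aging SNL replicate 1 and 2.8% without aging SNL replicate 2.

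**Figure D4:**
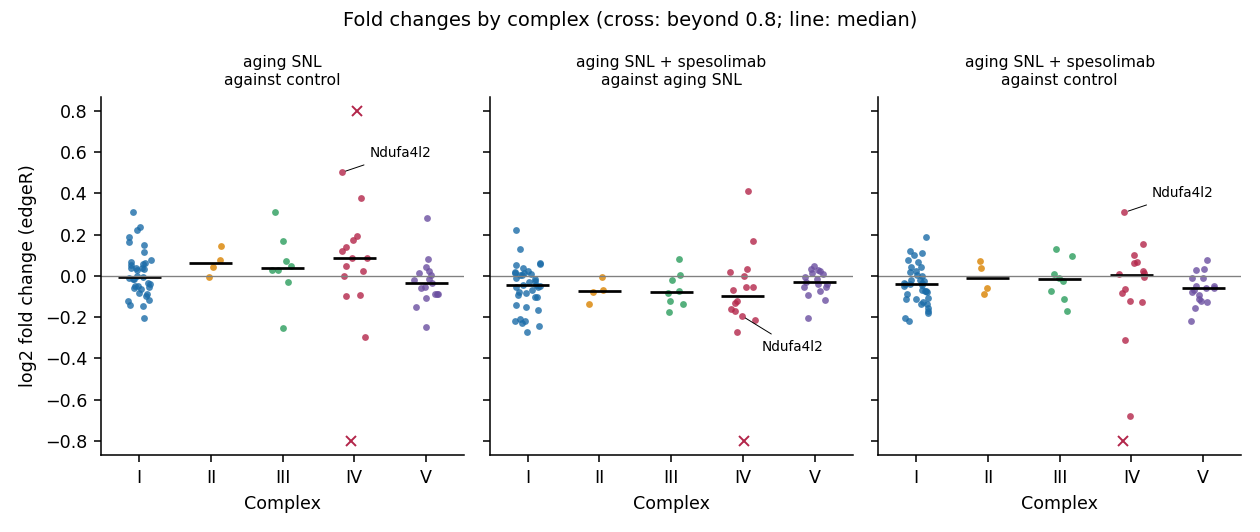
edgeR log2 fold change of each of the 82 tested genes by complex, for the 3 comparisons. Lines are medians and crosses mark values beyond 0.8, drawn at the edge. The medians of the complexes stay between -0.10 and 0.09, and the labelled gene, Ndufa4l2, is at 0.50, -0.19 and 0.31.

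The shares of the complexes within the members' summed TPM differed by small amounts between groups. Complex IV made up 30.1% and 29.4% of the sum in aging SNL, 29.3% and 29.1% with spesolimab, and 28.3% and 28.3% in control. With Ndufa4l2 left out, the complex IV shares were 27.7% and 26.6% in aging SNL, 27.1% and 26.6% with spesolimab, and 26.4% and 26.3% in control. Complex V made up 29.6% and 30.5% in aging SNL, 30.5% and 30.9% with spesolimab, and 31.5% and 31.6% in control. With Ndufa4l2 left out it had 30.6% and 31.7% in aging SNL, 31.5% and 31.9% with spesolimab, and 32.3% and 32.5% in control. Both control libraries had the highest complex V share in either case. These are shares within libraries, so a higher share of one complex lowers that of the others.

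**Figure D5:**
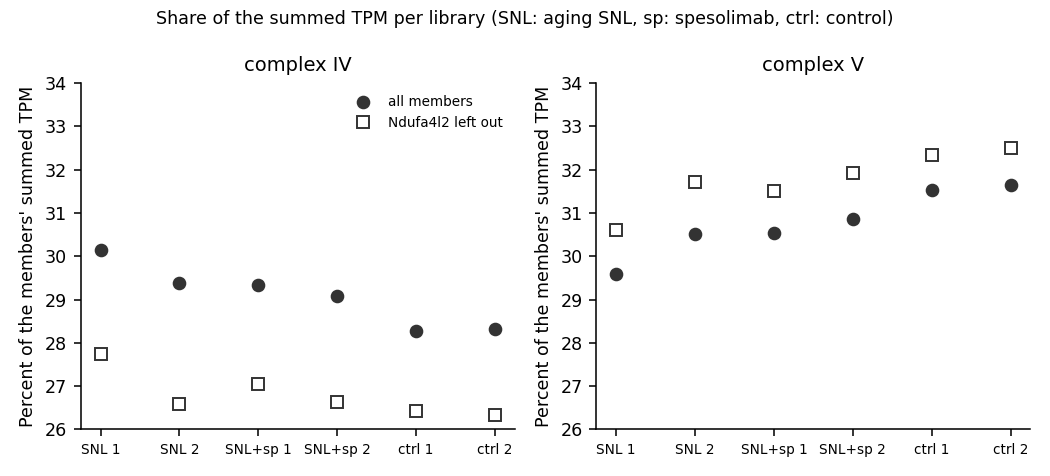
Percent of the members' summed TPM held by complex IV and by complex V in each library, with and without Ndufa4l2. With Ndufa4l2 included, complex IV shares were highest in aging SNL, and complex V shares were highest in the 2 control libraries, at 31.5% and 31.6%.

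Atpif1, which encodes the inhibitor of ATP synthase and does not meet the symbol rule, was lower in all 4 aging SNL libraries with or without spesolimab than in either control. Over all genes, 21.1% had both aging SNL libraries below both controls, and 24.6% had both spesolimab libraries below them. These comparisons share the control libraries. Atpif1 had 39.0 and 40.0 CPM in aging SNL, 43.3 and 38.7 CPM in the spesolimab group, and 53.2 and 51.1 CPM in control. The log2 fold change was -0.40 ± 0.10 in aging SNL against control (edgeR adjusted p = 0.245) and -0.35 ± 0.10 in the spesolimab group against control (edgeR adjusted p = 0.584). In aging SNL against control the estimate was -0.38 ± 0.11 without aging SNL replicate 1 (edgeR adjusted p = 0.109, 3.43% of all genes called). Without replicate 2 it was -0.42 ± 0.11 (edgeR adjusted p = 0.0302, 25.7% of all genes called, 12.3% lower).

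Other genes of mitochondrial respiration gave 0 calls of edgeR in all 3 comparisons with 6 libraries. In aging SNL against control, the median log2 fold change was 0.06 over 22 other electron carriers and coenzyme Q genes, 0.04 over 45 assembly factors and 0.01 over 20 genes of pyruvate dehydrogenase and the citric acid cycle. It was -0.01 over 78 mitochondrial ribosomal protein genes, -0.02 over 23 import genes and -0.05 over 77 cytosolic ribosomal protein genes. These medians differed between aging SNL replicates 1 and 2. From the control mean in log2 CPM they stood at -0.01 and 0.06 for electron carriers, and 0.03 and 0.11 for assembly factors. They stood at 0.03 and -0.00 for the citric acid cycle list, and -0.05 and 0.03 for mitochondrial ribosomal genes. Import genes stood at -0.09 and 0.06, and cytosolic ribosomal genes at 0.01 and -0.12. Among the electron carriers Coq8a, a kinase-like gene needed for coenzyme Q, had a log2 fold change of -0.51 ± 0.18 and Etfb, of the electron transfer flavoprotein, had -0.26 ± 0.11. Of the assembly factors, the copper chaperone Cox17 had 0.37 ± 0.14 and Sdhaf2, which attaches the flavin to Sdha, had 0.21 ± 0.09. Suclg2, a subunit of succinyl-CoA ligase, had -0.40 ± 0.12 and Ogdh, of the oxoglutarate dehydrogenase complex, had 0.17 ± 0.10. The import genes Tomm6 and Timm8b had 0.26 ± 0.09 and 0.20 ± 0.10, the mitochondrial ribosomal genes Mrps6 and Mrps34 had 0.72 ± 0.20 and 0.41 ± 0.13, and the cytosolic ribosomal genes Rpl10a and Rps2 had -0.35 ± 0.12 and -0.37 ± 0.13.

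Among 20 regulators of mitochondrial biogenesis the median log2 fold change in aging SNL against control was 0.07. From the control mean in log2 CPM their median stood at -0.02 in aging SNL replicate 1 and 0.10 in replicate 2. Nrf1, which encodes nuclear respiratory factor 1, had 26.6 and 25.8 CPM in aging SNL, 22.9 and 23.1 CPM in the spesolimab group, and 21.3 and 21.7 CPM in control (0.29 ± 0.09, edgeR adjusted p = 0.336). Ppargc1a, a coactivator of mitochondrial biogenesis, had 4.22 and 5.48 CPM in aging SNL, 5.14 and 2.53 CPM in the spesolimab group, and 2.97 and 1.402 CPM in control. For both genes, named for the lowest p of their list, the aging SNL libraries were above both controls, as in 20.9% of all genes. Neither was called.

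The 10 regulators of respiration linked to hypoxia-inducible factor had a median log2 fold change of 0.36 in aging SNL against control. Of their estimates 7 were above and 3 below 0. By library the median of the list lay at 0.02 and 0.43 from the control mean in aging SNL, at 0.07 and 0.21 in the spesolimab group, and at -0.07 and 0.07 in control, so replicate 2 was higher than replicate 1 in each group. Bnip3, which marks mitochondria for removal, had 342 and 384 CPM in aging SNL, 267 and 295 CPM in the spesolimab group, and 233 and 265 CPM in control (0.55 ± 0.13, edgeR adjusted p = 0.242). Egln3, an oxygen-sensing prolyl hydroxylase, had 52.4 and 26.1 CPM in aging SNL, 17.9 and 19.7 CPM in the spesolimab group, and 17.9 and 16.3 CPM in control (1.20 ± 0.33, edgeR adjusted p = 0.290). Without aging SNL replicate 1 the Egln3 estimate was 0.61 ± 0.13 (edgeR adjusted p = 0.0552). In both genes aging SNL lay above both other groups without overlap. Both were named for the lowest p of their list in aging SNL against control, which favours such a separation. Over all genes, 20.9% had both aging SNL libraries above both controls. In 13.4% both spesolimab libraries were below both aging SNL libraries. DESeq2 called Bnip3 (adjusted p = 0.0169) and Egln3 (adjusted p = 0.0411) higher in aging SNL against control, with 1.69% of all genes called higher. Of the 10, edgeR called 3 higher without aging SNL replicate 1, against 1.81% of all genes, and 3 higher and 2 lower without aging SNL replicate 2, against 13.4% and 12.3%.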

How the data were processed

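The deposited table gave expected counts, TPM and FPKM per gene for all 6 libraries. The expected counts were deposited by the authors unscaled, per the file headers, and 12.3% of them were not whole. TPM had been scaled within each library by the authors, and the FPKM values were deposited per the file headers. FPKM was used here only to derive effective lengths. The submitters' processing notes name build GRCm39, DESeq2 1.4.5, RSEM 1.3.1 and Bowtie2 2.3.4.3. Reads of overlapping or near-identical genes may be divided unevenly, since annotation and strandedness are not given in the sources used here. Of the members, 8 had counts that were not whole. The 9 columns of group averages were not used.

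Rounded counts of all 6 libraries entered edgeR 4.0.16 (R 4.3.3), quasi-likelihood test: filterByExpr (minimum count 10, minimum total 15; 13399 genes kept), TMM scaling, 1 mean per group, 3 residual degrees of freedom, Benjamini-Hochberg adjustment and a threshold of 0.05. The fit was also run on simulated counts with known changes. Their spread between libraries was smaller than in these data, and no simulated library stood apart. The run therefore does not show how the fit behaves on these data. A standard error is the absolute log2 fold change over the root of F, and CPM uses TMM-scaled depth. Alternatives were DESeq2 1.42.0, limma 3.58.1 on log2 TPM, other size factors, no filter, the 4 libraries compared, a replicate block, and leaving out each library.

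The members, gene lists and tests were chosen with earlier results of these data known. Named members were the restricted complex IV forms and their partners, complex II, the 2 highest members of each other complex, the 2 with the lowest p per complex, and the 4 largest rises and falls at 5 TPM or more. The 2 genes with the lowest p in aging SNL against control were named from each other list. Atp5h, and the members listed only for a count, were named outside this rule after their values were seen. Same-numbered libraries deviated together (correlation 0.25 for control and aging SNL, 0.42 for control and spesolimab, 0.29 for aging SNL and spesolimab), so the numbers in the titles were read as pairing the libraries. The main fit and the statements on overlap did not use this pairing. It entered only the alternative fit with a replicate block and the remark on same-numbered libraries of Cox4i2.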

Additional observations from a re-analysis of the deposited data

How the results depend on the processing

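The 6 libraries gave no call in edgeR, so no called direction could turn, and 0 members were called in spesolimab against control under all of them. In DESeq2 the calls in aging SNL against control were 445 genes and 1 member, in spesolimab against aging SNL 3 genes, and in spesolimab against control 160 genes; the edgeR fit of the 4 libraries compared gave 382 genes in the last. Leaving out 1 library at a time gave 0 to 3525 genes and 0 to 11 members in aging SNL against control, 0 to 2810 genes and 0 to 8 members in spesolimab against aging SNL, and 0 to 385 genes in spesolimab against control. In aging SNL against control the calls were 3525 genes and 11 members without aging SNL replicate 2, and 467 genes and 1 member without aging SNL replicate 1. Calls in spesolimab against aging SNL came only from the fit without aging SNL replicate 2 and, for 3 genes, from DESeq2. In spesolimab against control both fits that left out an aging SNL library called 385 genes.

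With the replicate block, which pairs same-numbered libraries, 0 genes and 0 members were called in each comparison, as without it. The member median on the log2 scale was 0.02 in aging SNL against control, -0.05 in spesolimab against aging SNL and -0.05 in spesolimab against control.

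On log2(TPM + 1) the member medians were -0.24, 0.12 and -0.13 for aging SNL against control, spesolimab against aging SNL and spesolimab against control. On log2(TPM + 0.1) they were -0.25, 0.12 and -0.13. The medians of all genes moved with them, to -0.22, 0.14 and -0.08 on log2(TPM + 1), so that relative to all genes the members stood at -0.03, -0.02 and -0.04. Leaving out 1 library gave member medians of -0.00 to 0.03, -0.06 to -0.03 and -0.0609 to -0.0218 in the same order, the last of these, -0.0218, without control replicate 2. Of 168 values of named genes, the call changed in 30 without aging SNL replicate 2, in 3 without aging SNL replicate 1, in 4 in DESeq2 and in none under each other setting. The sign of the estimate differed in 60 of the 168 on either TPM scale and in 28 without aging SNL replicate 1. The causes were not tested. The spread between 2 libraries per group limits these tests, and low counts limit them for Cox6a2, Cox6b2 and the 4 members too low to be tested.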

Other observations

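The other cell type markers gave these levels. Erythroid markers summed to 0 to 0.32 TPM per library, and endothelial markers to 0.97 and 1.08 TPM in aging SNL, 1.94 and 1.42 TPM in the spesolimab group, and 1.56 and 0.60 TPM in control. Adipocyte markers summed to 491 and 433 TPM in aging SNL, 661 and 379 TPM in the spesolimab group, and 326 and 180 TPM in control. Synovial fibroblast markers summed to 737 and 653 TPM in aging SNL, 752 and 664 TPM in the spesolimab group, and 613 and 529 TPM in control. Keratinocyte markers stayed between 2.40 and 4.07 TPM.

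Of the 81 members with a length, the 27 shortest, of 84.7 to 303 bases, had a median of 0.08 from the control mean in log2 CPM in aging SNL replicate 1 and -0.02 in replicate 2. In the spesolimab group these stood at -0.05 and -0.08. The 27 longest, of 691 to 2614 bases, stood at 0.05 and 0.01 in aging SNL and at -0.04 and -0.03 in the spesolimab group.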
